A study of Arabidopsis thaliana with 30 samples.

Results

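The 10 genes described here make, carry or handle nicotianamine and the iron that moves with it through the Arabidopsis plant. They are the nicotianamine synthase genes NAS1 (AT5G04950), NAS2 (AT5G56080), NAS3 (AT1G09240) and NAS4 (AT1G56430), the transporter genes YSL1 (AT4G24120), YSL2 (AT5G24380), YSL3 (AT5G53550) and OPT3 (AT4G16370), the citrate exporter gene FRD3 (AT3G08040) and the ferritin gene FER1 (AT5G01600). They were taken by gene identifier from the 37051 genes with read counts, and the group was proposed with earlier results on these libraries known. They are taken here as chosen by the difference of NAS1 between fiber and vessel element nuclei, the only earlier result at hand that names any of them. Levels of NAS1 that involve fibers or vessel elements and every fiber against vessel difference of the 10 genes are therefore descriptions without a test. NAS1 was tested only among the other 5 tissues and within the SMXL5pro and APLpro lines, and counts of genes past a test leave it out.

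Nuclear transcripts were measured in GFP-positive nuclei of 7 Arabidopsis lines in the Col-0 background, each expressing a histone H4-GFP fusion under 1 promoter. In the order of the promoters used, NST3pro marks fibers, VND7pro differentiating vessel elements, PXYpro the proximal cambium with differentiating xylem, SMXL5pro the distal cambium with differentiating phloem, APLpro differentiated phloem, SCRpro the starch sheath and LTP1pro the epidermis. From 3 of these lines (NST3pro, SMXL5pro, APLpro) nuclei without GFP, which hold every tissue where the reporter is silent, were sorted as well. All plants grew in short days and then in long days, without a treatment, and the second bottom-most internode of the stem was used, so a tissue here is the domain of a promoter in 1 line. Each of the 10 groups had 3 libraries, of which the study left out GFP-positive replicates 2, 6, 15 and 19, so tissues were compared with 17 libraries, 2 or 3 a tissue.

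Nicotianamine is a small amino acid derivative that binds iron, zinc, copper and other metals and keeps them soluble at the pH of the phloem sap. Nicotianamine synthases build it from S-adenosylmethionine, and transporters of the YSL family carry its metal complexes across membranes along the vascular tissue. OPT3 loads iron into the phloem, where it also serves the signal by which the shoot reports its iron status to the root, whereas iron in the xylem travels bound to citrate, which FRD3 releases. Ferritins store iron inside plastids and their transcripts accumulate when iron is plentiful.

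The 4 nicotianamine synthase genes have a single exon each and form pairs of close copies, so whether a read of 50 bases can tell them apart had to be asked first. In the coding sequence, NAS1 and NAS2 were identical at 82.75% of aligned positions and NAS3 and NAS4 at 79%, against 66.6% to 68.4% for the other pairs of synthases. The longest identical runs were 49 bases in NAS1 and NAS2 and 32 bases in NAS3 and NAS4. They are shown here with their flanks because they are the stretches where reads of a pair are most alike. The sequences are coding strands of the RefSeq TAIR10.1 assembly, and capitals mark the bases that differ within a pair.
NAS1, chr5:1458585-1458663 (minus strand): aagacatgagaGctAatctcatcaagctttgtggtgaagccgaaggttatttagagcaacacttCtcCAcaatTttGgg
NAS2, chr5:22712108-22712186 (minus strand): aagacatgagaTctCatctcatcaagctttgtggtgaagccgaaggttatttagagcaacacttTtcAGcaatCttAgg
NAS3, chr1:2985052-2985113 (plus strand): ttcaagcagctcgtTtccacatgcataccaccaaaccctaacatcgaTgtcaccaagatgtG
NAS4, chr1:21137128-21137189 (plus strand): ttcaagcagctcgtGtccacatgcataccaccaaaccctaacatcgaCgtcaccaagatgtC
Both runs are shorter than a full read of 50 bases. Every window of 50 bases in the gene body occurred once in the genome for 9 of the 10 genes. In NAS3 this held for 1352 of 1354 windows. Reads shortened by trimming can lie within a run, and shorter windows were not examined. Only unique hits were counted. The YSL genes were less alike, with 65.9% to 69.3% identical coding positions. A gene on the opposite strand overlapped 2 of the 10 genes: AT5G24390 covered 3.522% of YSL2, and the long noncoding RNA gene AT5G01595 covered 63.55% of FER1. Because the strand was ignored in counting, a read in the shared stretch of FER1 can be assigned to neither gene, and AT5G01595 itself had 0 to 147 reads a library.

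Libraries held 725545 to 18335693 reads on genes, with the fewest in GFP-negative replicate 47 of the NST3pro line. Of 19 promoter and tissue marker genes, 18 peaked in the tissue they mark over the 17 kept libraries. The exception was LTP1, which averaged 25.9 CPM (normalized read counts, relative to the TMM-scaled library size) in LTP1pro and 67.7 CPM in VND7pro nuclei. Some peaks were narrow, such as PXY with 266 CPM in PXYpro and 246 CPM in VND7pro nuclei. MOL1 had 27.3 CPM in SMXL5pro and 25.1 CPM in VND7pro nuclei. Others were wide, such as VND6 with 70.8 CPM in VND7pro and 15.7 CPM in SCRpro nuclei. The study dropped the other 4 libraries partly because some genes departed there from known profiles. The count of 18 is therefore not an independent check. Genes labelled here as green cortex genes were 10 light-harvesting and Rubisco small subunit genes, all detected in every library. They summed to 12733 and 14446 CPM in NST3pro nuclei, against 625 to 6284 CPM in the other 15 libraries of the comparison. The reporters are silent in the cortex, and the sort was gated on wild-type nuclei with doublets excluded. How many cortex nuclei passed it was not measured. Whether these genes mark the cortex alone was not tested here. GFP-negative nuclei, which include the cortex, did not always have the higher sums (18 libraries scaled together). They had 713 to 844 CPM in the SMXL5pro line, against 804 to 1113 CPM with GFP. In the APLpro line they had 3192 to 6731 CPM, against 531 to 3869 CPM with GFP. Photosynthesis was a term over-represented in the study among genes higher in NST3pro than in VND7pro nuclei. The study counted a promoter reporter of LHCB3, which is among these 10 genes, with those active where its read counts predicted. It also saw cortex activity of a reporter of LHCB2.2, which is not among them. Left-out NST3pro replicate 2 stood apart from both other fiber libraries, with a green cortex sum of 1960.4 CPM against 13605 and 15052 CPM when all 21 GFP-positive libraries were scaled together. Companion cell genes (SUC2 and AHA3) summed to 373 and 574 CPM in APLpro and to 105 to 126 CPM in SMXL5pro nuclei. In VND7pro nuclei they summed to 447 and 492 CPM, but there the genes parted. SUC2 averaged 456 CPM in VND7pro and 366 CPM in APLpro nuclei. AHA3 had its highest mean in APLpro nuclei (107 CPM), with SMXL5pro nuclei next (44.4 CPM). Transcript levels of a domain depend both on how many of its nuclei hold a transcript and on how much each holds, which cannot be told apart here.

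OPT3 was the most abundant of the 10 transcripts per length of gene, at 40.7 CPM per kb averaged over the 17 libraries, followed by NAS1 at 21.6 and FER1 at 12.8 CPM per kb. YSL2 (10.3), NAS4 (8.37), YSL3 (7.52) and YSL1 (5.43 CPM per kb) came next, and NAS2 (2.62), FRD3 (2.31) and NAS3 (1.75 CPM per kb) were the scarcest. The length used is that of the whole gene. For FER1, reads in the 63.55% shared with AT5G01595 were assigned to neither gene, so its level and rank per kb may be too low. NAS2 had 0 reads in 8 and NAS3 in 6 of all 30 libraries, whereas the other 8 genes had reads in each library. All 10 genes passed the filter on low counts in the comparison of tissues. OPT3 (adjusted p = 0.000141), YSL2 (2.60e-06) and YSL3 (0.00389) differed among the 7 tissues at an adjusted p of 0.01 in edgeR's quasi-likelihood test with Benjamini-Hochberg adjustment over 32659 genes. That is 3 of the 9 genes other than NAS1, beside 26.1% of all genes. FER1 missed this threshold (0.0132), as did NAS2 (0.141), YSL1 (0.186), NAS4 (0.221), NAS3 (0.273) and FRD3 (0.740). The call of YSL3 was lost without VND7pro replicate 4 (adjusted p = 0.0366) or SCRpro replicate 16 (0.0104), and FER1 passed without NST3pro replicate 3 (0.00767) or with DESeq2 (0.0038).

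**Figure D1:**
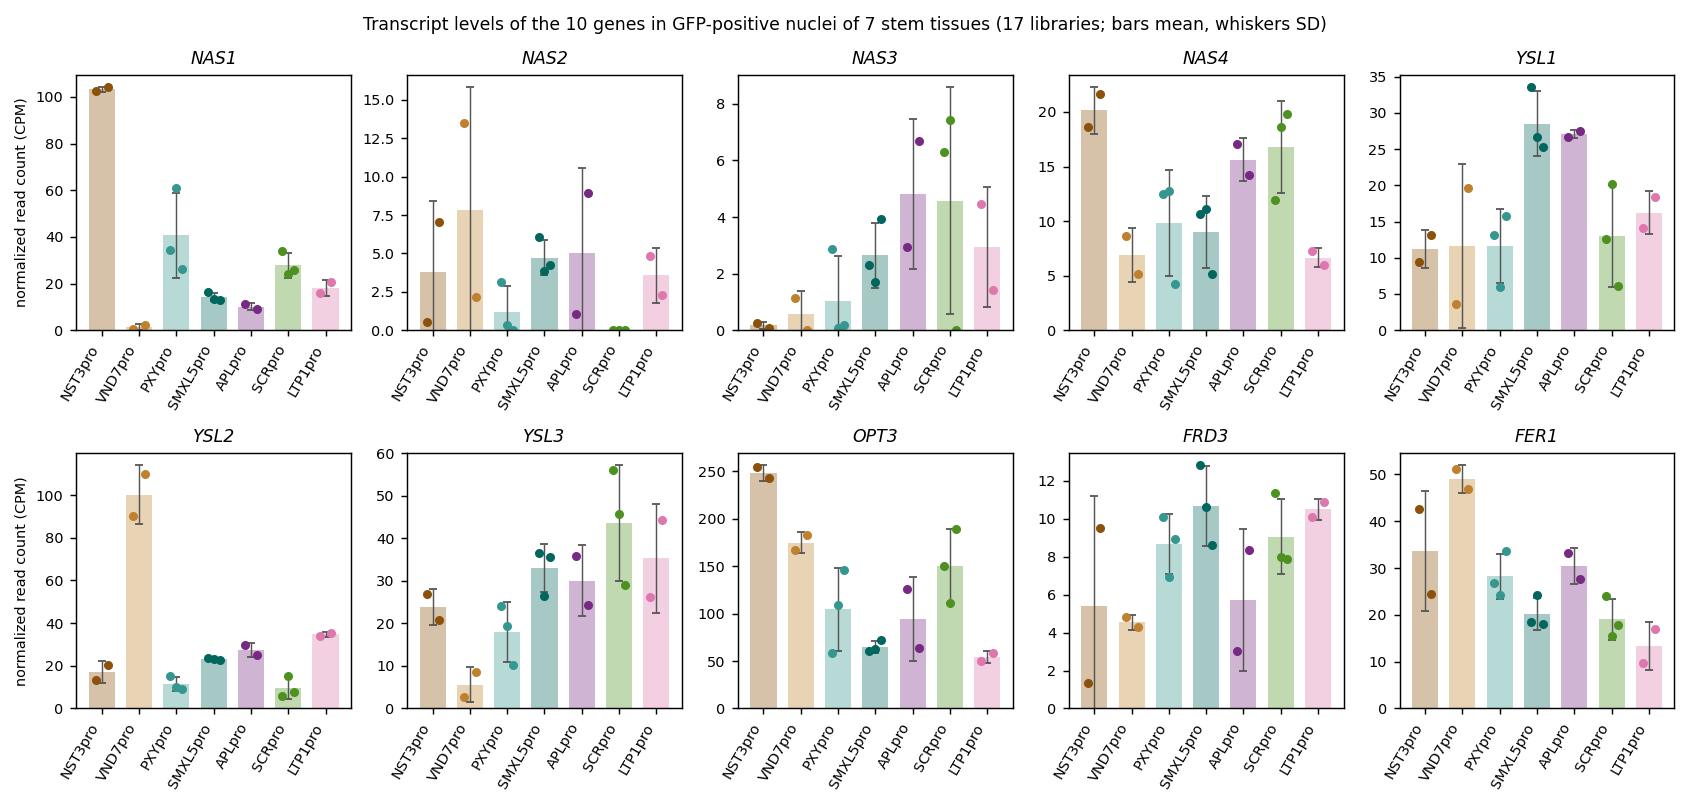
Normalized read counts (CPM, y axis, linear, own scale in each panel) of the 10 genes in GFP-positive nuclei of the 7 tissues (x axis), with 1 point a library, bars for the mean and whiskers for the SD of 2 or 3 libraries. NAS1 and OPT3 have their highest means in NST3pro nuclei (103 and 249 CPM) and YSL2 in VND7pro nuclei (100.2 CPM), whereas the points of NAS2, NAS3 and FRD3 spread widely within tissues.

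Per kb of gene, NAS1 was the most abundant synthase transcript in 5 of the 7 tissues, the exceptions being vessel elements and differentiated phloem. It had 103 and 104 CPM in the fiber libraries (NST3pro), against 0.457 and 2.13 CPM in the vessel element libraries (VND7pro), which rest on 2 and 5 reads. The fiber mean was 79.8 times the vessel mean, and the pooled vessel level of 1.04 CPM has a 95% Poisson interval of 0.419 to 2.14 CPM. That interval leaves out the spread between libraries and treats reads as independent molecules. Amplified reads without molecular identifiers are not independent, so it may be too narrow. Fiber libraries thus lay above and vessel libraries below all others of the 17. Between them, PXYpro nuclei had 34.4, 61.1 and 26.4 CPM, SCRpro nuclei 34.0, 23.9 and 25.6 CPM, and LTP1pro nuclei 15.8 and 20.6 CPM. The phloem domains came lower, with 16.2, 13.3 and 12.9 CPM in SMXL5pro and 11.4 and 8.95 CPM in APLpro nuclei. PXYpro and SCRpro libraries overlapped, as did LTP1pro and SMXL5pro libraries, whereas SMXL5pro libraries all exceeded both APLpro libraries. Among the 5 tissues other than fibers and vessel elements, NAS1 differed in edgeR's quasi-likelihood test with Benjamini-Hochberg adjustment (adjusted p = 0.00255), beside 17.7% of all genes. This call was lost without PXYpro replicate 8 (0.0187) or APLpro replicate 14 (0.0115), with the size factors of DESeq2 (0.0139) and with all 21 libraries (0.208). OPT3 (0.00751) and YSL2 (0.00256) also differed among these 5 tissues.

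The levels of NAS1 moved with the green cortex genes in part, at r = 0.40 (Pearson) and rho = 0.70 (Spearman) over the 17 libraries on the scale of log2(CPM + 1). Fibers had the highest green cortex sums, followed by SCRpro (4471 to 6284 CPM), PXYpro (4096 to 4880.2 CPM) and VND7pro nuclei (3626 and 3872 CPM). APLpro nuclei had 2243 and 3353 CPM, and SMXL5pro and LTP1pro nuclei 625 to 894 CPM. NAS1 levels of the same tissues are given above. Whether the green cortex genes and NAS1 were transcribed in the sorted tissue or in cortex nuclei that passed the gate was not tested.

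The other synthase genes were scarcer per kb on average and did not pass the test among tissues. NAS4 had 18.6 and 21.7 CPM in NST3pro nuclei, 12, 18.6 and 19.8 CPM in SCRpro nuclei and 17 and 14.2 CPM in APLpro nuclei. The remaining tissues had less of it, from 4.2 CPM in a PXYpro library to 12.7 CPM in another, with 8.67 and 5.12 CPM in VND7pro and 7.28 and 6.01 CPM in LTP1pro nuclei. NAS4 libraries of fibers and starch sheath overlapped, and no NAS4 contrast of a tissue with the others passed the threshold. NAS2 was uneven within tissues, with 13.5 and 2.13 CPM in VND7pro, 8.95 and 1.05 CPM in APLpro and 7.06 and 0.528 CPM in NST3pro nuclei. It was steadier in SMXL5pro nuclei, with 6.05, 3.88 and 4.24 CPM. The 3 SCRpro libraries had 0 NAS2 reads, which allows up to 0.469 CPM (3 reads over the group), a limit from depth and not an absence. NAS3 stayed at or below 7.43 CPM in each of the 17 libraries, with means of 4.82 ± 2.65 CPM in APLpro (SD, n = 2), 4.58 ± 4.00 CPM in SCRpro (SD, n = 3) and 0.174 ± 0.127 CPM in NST3pro nuclei (SD, n = 2). The fiber value rests on 2 and 1 reads, and SCRpro replicate 18 had 0 reads.

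As a share of the summed synthase level per kb, NAS1 made up 81.4% ± 4.30 in fibers (SD, n = 2) and 78.1% ± 11.2 in PXYpro nuclei (SD, n = 3). It made up 58.3% ± 13.7 in LTP1pro (SD, n = 2), 57.0% ± 8.55 in SCRpro (SD, n = 3) and 46.4% ± 2.3 in SMXL5pro nuclei (SD, n = 3). The share was 29.2% ± 8.93 in APLpro and 12.3% ± 14.7 in VND7pro nuclei (SD, n = 2 each). In the tissues poor in NAS1 other synthases led. NAS4 made up 43.5% ± 11.6 in APLpro nuclei (SD, n = 2), the largest share in both libraries. In VND7pro nuclei NAS2 led in replicate 4, at 59.1% beside 34.3% for NAS4, and NAS4 in replicate 5, at 52.9% beside 24.4% for NAS2. The summed level was 90.9 ± 5.70 CPM per kb in fibers and 12.1 ± 7.63 CPM per kb in vessel elements (SD, n = 2 each), with 21.9 to 37.5 CPM per kb as means of the other tissues. No test was made of these shares, since NAS1 enters each of them.

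**Figure D2:**
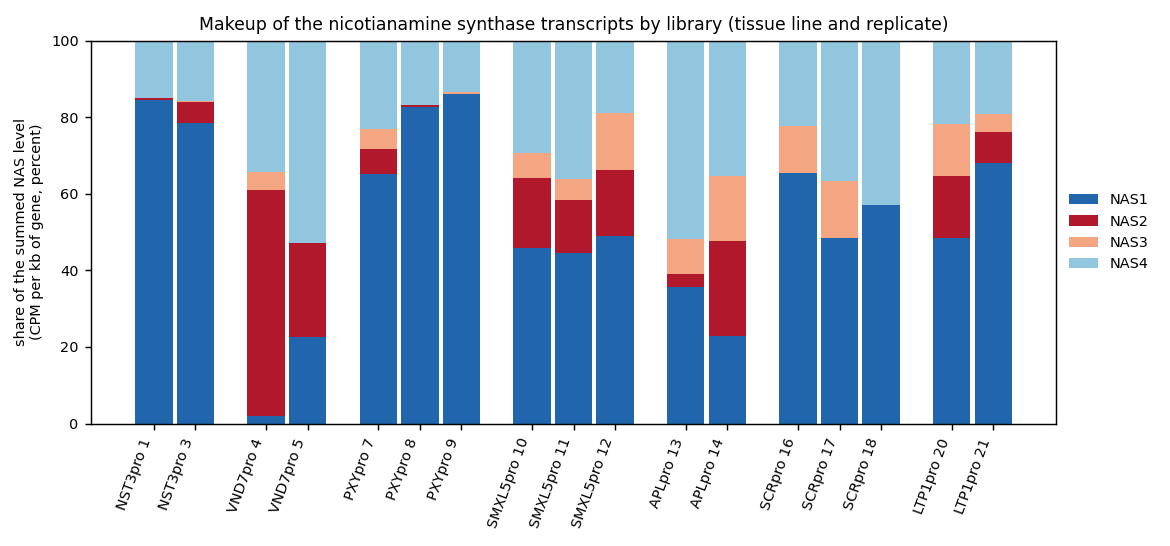
Share of each nicotianamine synthase gene in the summed synthase level (y axis, percent of CPM per kb of gene) in the 17 libraries (x axis, line and replicate). NAS1 takes 78.4% to 84.5% in the NST3pro libraries and 1.86% and 22.7% in the VND7pro libraries, where NAS2 and NAS4 take most of the rest.

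The transporters of metal-nicotianamine complexes were highest in different tissues. YSL2, which in Arabidopsis is expressed along the vasculature and is linked to lateral movement of metals, had 90.4 and 110.1 CPM in VND7pro nuclei, against 5.67 to 35.5 CPM in the other 15 libraries. No library of another tissue overlapped the vessel libraries. VND7pro nuclei exceeded the mean of the other 6 tissues by a log2 fold change of 2.43 ± 0.26 (SE), with an adjusted p of 4.48e-07 in edgeR's quasi-likelihood test with Benjamini-Hochberg adjustment. YSL2 was lowest in SCRpro nuclei, with 5.67, 15.4 and 7.87 CPM, and in PXYpro nuclei, with 15.3, 10.0 and 9.10 CPM. Both fell below the mean of the other tissues, by 1.51 ± 0.32 on the log2 scale in SCRpro (adjusted p = 0.00227) and by 1.21 ± 0.29 in PXYpro nuclei (0.00653). LTP1pro (34.0 and 35.5 CPM), APLpro (29.6 and 25.0 CPM), SMXL5pro (23.7, 23.3 and 22.7 CPM) and NST3pro nuclei (13.3 and 20.6 CPM) lay between them. The vessel call held in all 21 alternatives. The SCRpro call was lost in 3 of them, without SCRpro replicate 16 (log2 fold change -1.27) or 18 (-1.36) or with all 21 libraries (-1.31), and the PXYpro call in 10 of them (-1.24 to -1.03).

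YSL3, which with YSL1 moves metal complexes from leaves into the phloem and the seed, had its lowest levels where YSL2 had its highest. VND7pro nuclei had 2.74 and 8.53 CPM of YSL3, against 10.3 to 56.1 CPM in the other 15 libraries. It fell below the mean of the other tissues there by 2.46 ± 0.49 on the log2 scale (SE, adjusted p = 0.000842 in edgeR's quasi-likelihood test with Benjamini-Hochberg adjustment). Without VND7pro replicate 4 the log2 fold change was -1.79 and the call was lost (adjusted p = 0.0668). The starch sheath had the highest mean of YSL3, with 56.1, 45.6 and 29.1 CPM, but the log2 fold change of 1.06 ± 0.31 did not pass (adjusted p = 0.0238). SMXL5pro (36.6, 26.5 and 35.7 CPM), APLpro (35.9 and 24.2 CPM) and LTP1pro libraries (26.3 and 44.4 CPM) overlapped the starch sheath. YSL1 had its highest means in the phloem domains, at 33.6, 26.7 and 25.3 CPM in SMXL5pro and 26.7 and 27.5 CPM in APLpro nuclei, against 3.65 to 20.2 CPM in the other 12 libraries. These ranges did not overlap, yet neither phloem domain passed alone, with log2 fold changes of 1.00 ± 0.40 in SMXL5pro (adjusted p = 0.0778) and 0.91 ± 0.47 in APLpro nuclei (0.239). The vessel libraries of YSL1 were far apart, at 3.65 and 19.6 CPM.

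OPT3 was highest in fibers, with 254 and 243 CPM in NST3pro nuclei, against 49.7 to 189 CPM in the other 15 libraries. Fibers exceeded the mean of the other tissues by a log2 fold change of 1.33 ± 0.24 (SE, adjusted p = 0.000297 in edgeR's quasi-likelihood test with Benjamini-Hochberg adjustment), a call kept in all 21 alternatives. Next came VND7pro (167 and 183 CPM), SCRpro (150.0, 111 and 189 CPM) and PXYpro nuclei (58.9, 109 and 146 CPM). The lowest levels were those of LTP1pro (49.7 and 58.7 CPM) and SMXL5pro nuclei (60.1, 63.1 and 71.7 CPM). APLpro nuclei had 126 and 63.4 CPM of OPT3, within the range of the PXYpro libraries. Sums of the companion cell genes were high in APLpro nuclei and, through SUC2 but not AHA3, also in VND7pro nuclei. LTP1pro nuclei fell below the mean of the other tissues by 1.23 ± 0.30 on the log2 scale (adjusted p = 0.00718), a call lost in 8 of 21 alternatives (-1.35 to -0.89), among them the size factors of DESeq2 and leaving out either LTP1pro library. SMXL5pro nuclei passed the p threshold (0.00814) at a log2 fold change of -0.92 ± 0.24, less than the 2-fold required. Within the NST3pro line, with the 18 libraries of the 3 lines scaled together, OPT3 had 219 to 272 CPM in GFP-positive nuclei. The GFP-negative nuclei had 88.1 to 304 CPM, an overlap at a log2 fold change of 0.41 ± 0.56 (SE, adjusted p = 0.9998 in the same edgeR test). Whether the fiber excess belongs to the tissue or to the line cannot be told apart. OPT3 had the closest relation to the green cortex genes among the genes examined for it, at r = 0.84 (Pearson) and rho = 0.72 (Spearman) over the 17 libraries. In left-out NST3pro replicate 2, where the green cortex sum was 1960.4 CPM, OPT3 stood at 189 CPM, against 272 and 253 CPM in the other fiber libraries on the scale of all 21. The part of cortex nuclei that passed the gate in the OPT3 levels was not tested.

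FER1 and FRD3 differed less. FER1 had 51.1 and 46.9 CPM in VND7pro nuclei, against 9.71 to 42.6 CPM in the other 15 libraries, and its lowest levels were 9.71 and 16.9 CPM in LTP1pro nuclei. The vessel libraries exceeded the mean of the other tissues by a log2 fold change of 1.09 ± 0.28 (SE, adjusted p = 0.00826 in edgeR's quasi-likelihood test with Benjamini-Hochberg adjustment). This call was lost in 15 of 21 alternatives, with log2 fold changes of 0.72 to 1.15, among them either vessel library left out and all 21 libraries. Reads on the overlapping AT5G01595 numbered 55 and 31 in these vessel libraries, beside 224 and 110 reads on FER1. FRD3 had 12.8, 10.6 and 8.59 CPM in SMXL5pro, 10.1 and 10.9 CPM in LTP1pro and 4.79 and 4.27 CPM in VND7pro nuclei. NST3pro (1.32 and 9.49 CPM) and APLpro libraries (3.05 and 8.35 CPM) spread over most of that range, and no contrast of FRD3 passed.

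In all, 7 of the 63 comparisons of a tissue with the mean of the other 6 passed an adjusted p of 0.01 and a 2-fold difference for the 9 genes other than NAS1. By tissue this was 1 gene in NST3pro (OPT3), 3 in VND7pro (YSL2, YSL3 and FER1), 1 in PXYpro (YSL2), 1 in SCRpro (YSL2), 1 in LTP1pro (OPT3) and 0 in SMXL5pro and APLpro nuclei. Of all genes, 10.4% were called in NST3pro, 11% in VND7pro, 5.58% in PXYpro, 11.5% in SMXL5pro, 3.51% in APLpro, 6.30% in SCRpro and 8.64% in LTP1pro nuclei. At an unadjusted p of 0.05, 2 of the 9 genes passed in SMXL5pro and 0 in APLpro nuclei, beside 36.2% of all genes in SMXL5pro and 23.9% in APLpro. At this p 3 genes passed in NST3pro (33.1% of all genes), 5 in VND7pro (30.9%), 1 in PXYpro (24.0%), 4 in SCRpro (24.1%) and 3 in LTP1pro nuclei (31.7%). The count of 7 fell to 3 without VND7pro replicate 4 or with all 21 libraries, and to 4 without SMXL5pro replicate 10 or 11. The size factors of DESeq2 moved the median log2 fold change of all genes by -0.18 to 0.22 in these contrasts. Relative to the median gene, the log2 fold change of YSL2 in vessel elements was 2.51 under both scalings and that of OPT3 in fibers was 1.49. The same value for YSL3 in vessel elements was -2.37 under both.

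**Figure D3:**
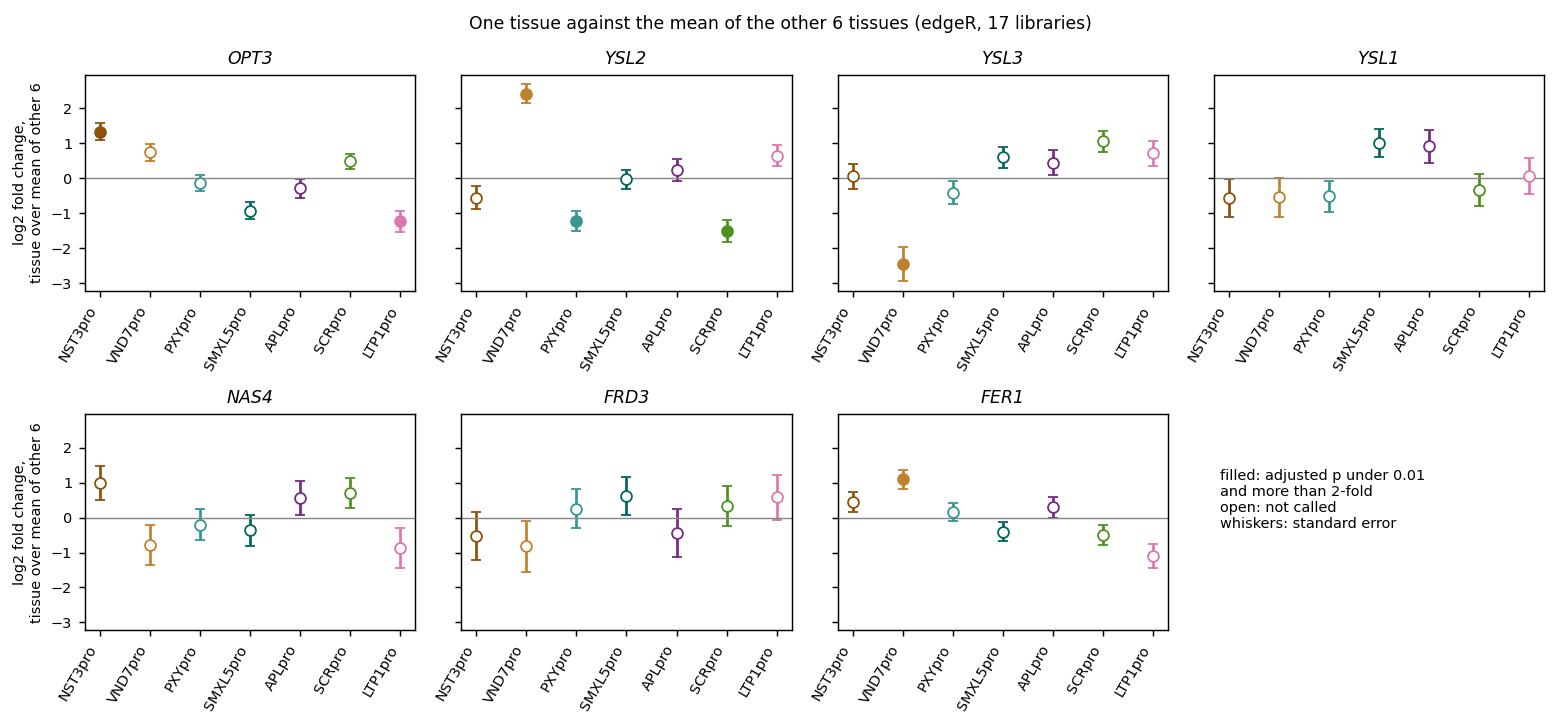
Log2 fold change of each tissue over the mean of the other 6 tissues (y axis; x axis, tissue) for 7 of the 10 genes, NAS1 being left out as untested and NAS2 and NAS3 for their few reads. Points are edgeR estimates from 17 libraries, whiskers are standard errors, and filled points passed an adjusted p of 0.01 and 2-fold. YSL2 stands at 2.43 and YSL3 at -2.46 in VND7pro nuclei, and OPT3 at 1.33 in NST3pro nuclei.

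Pairs of tissues were compared next, to learn which neighbours in the order of a gene's levels could be told apart. Of 180 tests (9 genes in 20 pairs, fibers against vessel elements left out), 18 passed, which is 10% beside 9.14% for all genes over the same pairs. They comprised 7 of OPT3, 6 of YSL2, 4 of YSL3 and 1 of FER1, and 0 for the other 5 genes. Tissues that followed each other in the order of a gene's means did not pass in any of 49 tests in edgeR, with 3 at an unadjusted p of 0.05. With all 21 libraries 0 passed, and no other tool was run on pairs. Neighbours are by choice the closest means of a gene, so few calls were to be expected. The share of all genes at this unadjusted p, 27.4%, is over all 20 pairs and is not a like measure. For NAS2, NAS3, NAS4, YSL1 and FRD3, no part of the order of tissues could be told apart in the tests of pairs, and for the other 4 genes some distant tissues but no neighbours. The YSL2 level of vessel elements exceeded that of PXYpro by a log2 fold change of 3.12 ± 0.38 and that of SCRpro nuclei by 3.37 ± 0.41, but the step from VND7pro to LTP1pro nuclei missed the threshold (adjusted p = 0.0130 in edgeR's quasi-likelihood test with Benjamini-Hochberg adjustment). OPT3 in fibers exceeded SMXL5pro by 1.93 ± 0.32, LTP1pro by 2.19 ± 0.37 and APLpro nuclei by 1.39 ± 0.35 on the log2 scale.

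The phloem-related tissues (SMXL5pro and APLpro) were set against the xylem-related ones (NST3pro, VND7pro and PXYpro), as iron with nicotianamine is known to move in both. Of the 9 genes, 2 passed, beside 23.8% of all genes. OPT3 fell by 1.08 ± 0.22 on the log2 scale (adjusted p = 0.000531) and YSL3 rose by 1.25 ± 0.30 (0.00242; edgeR's quasi-likelihood test with Benjamini-Hochberg adjustment). YSL1 (1.28 ± 0.40, adjusted p = 0.0138) and NAS3 (2.84 ± 1.02, 0.0299) missed the threshold. The median log2 fold change was 0.38 for the 9 genes and 0.45 for all genes. The size factors of DESeq2 moved the median of all genes by 0.27 and gave 63.6% higher genes among those called, against 44.2% with TMM. Relative to the median gene, OPT3 stood at -1.53 and YSL3 at 0.80 with TMM, and at -1.54 and 0.80 with the other size factors. Without this reference to the median gene, OPT3 came to -0.81 with those factors or with DESeq2 and to -0.97 with all 21 libraries, each less than 2-fold. Leaving out PXYpro replicate 9 (-0.97) or APLpro replicate 14 (-0.87) also ended the OPT3 call, and leaving out VND7pro replicate 4 (1.03, adjusted p = 0.0132) or APLpro replicate 13 (1.1, 0.0179) ended that of YSL3. NAS1 itself had 8.95 to 16.2 CPM in the phloem-related libraries, inside the span of 0.457 to 104 CPM of the xylem-related ones.

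Among the 10 genes themselves, levels over the 17 libraries related in opposite ways, given here as descriptions on the scale of log2(CPM + 1). NAS1 and YSL2 had a Pearson r of -0.77, NAS2 and YSL2 of 0.67, and YSL3 and FER1 of -0.65. All points share the libraries and their depth, and VND7pro nuclei, low in NAS1 and YSL3 and high in YSL2, weigh in each of these values. The 31052 genes with at least 1 CPM on average were ranked by likeness to each gene. For NAS1 the closest were AT4G31405 (r = 0.91), PRL1 (AT4G15900, 0.90), G-TMT (AT1G64970, 0.90), the noncoding RNA gene AT3G06125 (0.90) and AT1G28140 (0.88). AT1G28140 averaged 104 CPM in NST3pro and 9.81 CPM in VND7pro nuclei, while PRL1 spanned less, with 82.3 CPM in NST3pro and 32.6 CPM in VND7pro nuclei. The closest to YSL2 was APT4 (AT4G12440, r = 0.95), an adenine phosphoribosyltransferase gene with 162 CPM in VND7pro and 19.7 CPM in SCRpro nuclei. STO (AT1G06040, 0.94), a B-box protein gene, was closest to OPT3, with 409 CPM in NST3pro and 43.3 CPM in LTP1pro nuclei. Closest to NAS2, NAS3 and NAS4 were AT2G22390 (0.86), AT2G16594 (0.92) and mtLPD1 (AT1G48030, 0.86). GYRA (AT3G10690, 0.91) was closest to YSL1, AT3G60790 (0.90) to YSL3, AT2G19610 (0.85) to FRD3 and ANAC087 (AT5G18270, 0.92) to FER1.

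Of 49 other genes in 5 lists, of iron handling and of nicotianamine's substrate and storage, 19 (38.8%) differed among the 7 tissues at an adjusted p of 0.01, beside 26.1% of all genes. The list of substrate and storage, where all 5 genes passed, raises this share, and its S-adenosylmethionine synthetase genes are not specific to iron. Among regulators of the iron response 6 of 19 passed, and the widest ranges were those of ILR3 (AT5G54680), a bHLH transcription factor gene with 590.3 ± 30.3 CPM in VND7pro (SD, n = 2) and 36.5 ± 6.19 CPM in SMXL5pro nuclei (SD, n = 3), and of AT1G47395, with 41.8 CPM in APLpro and 3.69 CPM in PXYpro nuclei. Uptake and export genes passed in 2 of 7 cases. These were FRO3 (AT1G23020), a ferric reductase gene at 63.2 CPM in NST3pro and 12.6 CPM in APLpro nuclei, and the iron exporter gene IREG1 (AT2G38460), at 42.1 CPM in APLpro and 7.87 CPM in SCRpro nuclei. Among storage and organelle genes 3 of 13 passed, led by FER3 (AT3G56090), another ferritin gene, with 180 ± 9.30 CPM in VND7pro (SD, n = 2) and 3.27 ± 1.39 CPM in SMXL5pro nuclei (SD, n = 3). NRAMP3 (AT2G23150), which releases iron from the vacuole, had 24.4 CPM in LTP1pro and 1.46 CPM in NST3pro nuclei. Of 5 other YSL genes 3 passed, with YSL5 (AT3G17650) at 72.3 CPM in PXYpro and 13.9 CPM in SMXL5pro nuclei, and YSL7 (AT1G65730) at 60.1 CPM in LTP1pro and 7.77 CPM in VND7pro nuclei. All 5 genes of the list of nicotianamine's substrate and its vacuolar storage passed. In this list SAM-2 (AT4G01850) and MAT3 (AT2G36880), which make S-adenosylmethionine, averaged 1595 and 1433 CPM in SCRpro nuclei and 152 and 105 CPM in SMXL5pro nuclei. Each window of 50 bases in these and the other S-adenosylmethionine synthetase genes of the list, SAM1 and MAT4, occurred once in the genome. The median range of tissue means, in log2(CPM + 1), was 1.93 for regulators, 2.5 for uptake and export, 1.68 for storage, 2.31 for the other YSL genes and 2.89 for the substrate list. It was 2.18 for the 9 genes and 2.05 for all genes.

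The 4 libraries set aside by the study differed from their groups in several of the genes. On the scale of all 21 libraries, NAS1 stood at 15.2 CPM in NST3pro replicate 2, against 109.7 and 108 CPM in replicates 1 and 3. VND7pro replicate 6 had 14.3 CPM of NAS1, against 0.428 and 2.12 CPM in the other vessel libraries. LTP1pro replicate 19 had 3.85 CPM and APLpro replicate 15 had 15.1 CPM. NAS3 had 10.6 CPM in VND7pro replicate 6, against 1.07 and 0 CPM in the other vessel libraries. YSL2 had 49.5 CPM in VND7pro replicate 6, still above every library of another tissue, and 0.829 CPM in NST3pro replicate 2. With all 21 libraries the count of genes past the test of a tissue against the others was 3 in place of 7.

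**Figure D4:**
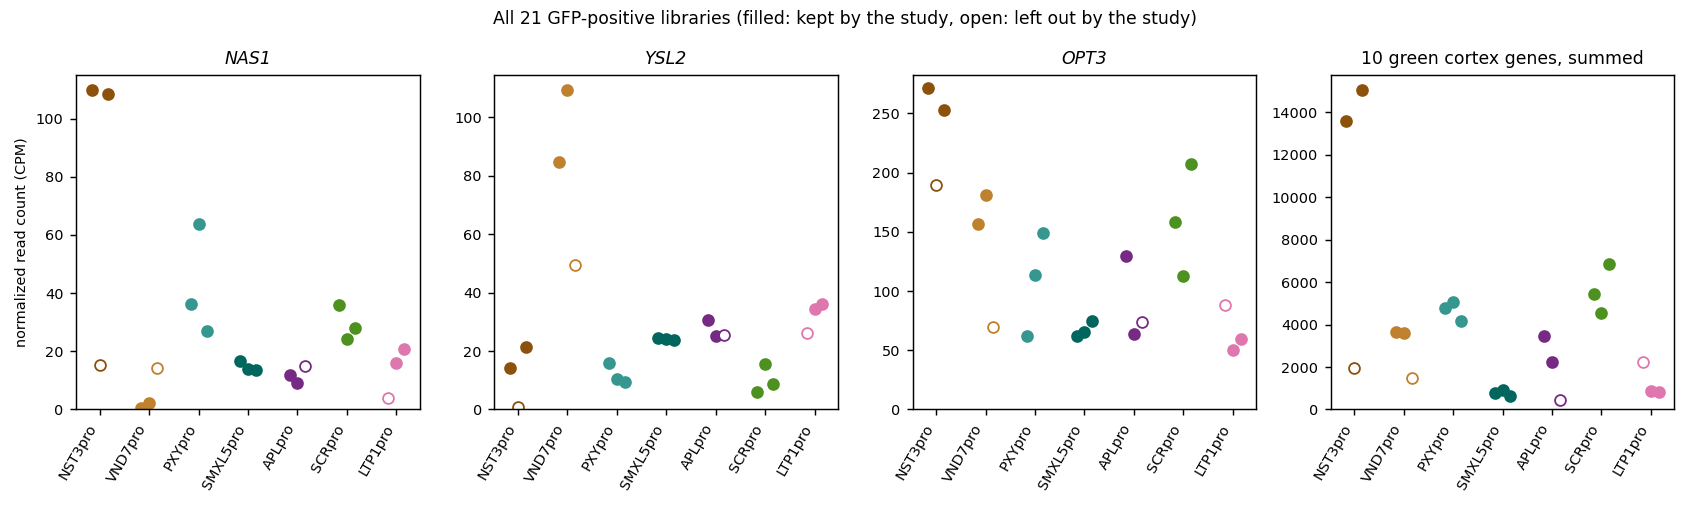
Normalized read counts (CPM, y axis, linear) of NAS1, YSL2, OPT3 and the sum of 10 green cortex genes in all 21 GFP-positive libraries by tissue (x axis), scaled together, with filled points for libraries that the study kept and open points for the 4 it left out. NST3pro replicate 2 has 15.2 CPM of NAS1 and a green cortex sum of 1960.4 CPM, both far below the other fiber libraries, while its OPT3 level is 189 CPM.

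GFP-positive nuclei were then compared with GFP-negative nuclei within the NST3pro, SMXL5pro and APLpro lines, using all libraries, to learn whether a transcript followed the reporter. Levels here are on the common scale of the 18 libraries of these lines, and fold changes are from the 6 libraries of a line. NAS1 had 109.6, 17.6 and 114 CPM in GFP-positive NST3pro nuclei, against 117, 36.7 and 126 CPM in its GFP-negative nuclei. Both populations overlapped, at a log2 fold change of -0.28 ± 0.79 (SE), and high NAS1 levels occurred in both populations of this line. Each population held 1 library with little NAS1, GFP-positive replicate 2 and GFP-negative replicate 47, which were also those with the lowest green cortex sums of the line. These sums were 13593, 2268 and 15804 CPM in GFP-positive and 15258, 4500.1 and 12599.8 CPM in GFP-negative nuclei, and their part in the NAS1 levels was not tested. GFP-negative replicate 47 had 15 NAS1 reads and a sum of 1060.2 CPM for the companion cell genes in a shallow library, against 258 and 284 CPM in the other GFP-negative libraries of the line.

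In the SMXL5pro line, NAS1 had 20.4, 16.6 and 16.6 CPM in GFP-positive nuclei, against 10.4, 15.5 and 8.66 CPM in GFP-negative nuclei. The populations did not overlap, but the log2 fold change of 0.64 ± 0.40 did not pass (adjusted p = 0.794 in edgeR's quasi-likelihood test with Benjamini-Hochberg adjustment). In the APLpro line the values were 13.1, 10.5 and 18.4 CPM in GFP-positive nuclei, against 4.1, 10.5 and 17.8 CPM in GFP-negative nuclei, which overlapped. The log2 fold change there was 0.26 ± 0.55 (0.883), and it was -0.12 without GFP-negative replicate 43.

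None of the 9 other genes passed an adjusted p of 0.05 in any line, with 0 called among 7 in NST3pro, where NAS2 and NAS3 fell under the filter, 0 of 9 in SMXL5pro and 0 of 9 in APLpro. This was so in edgeR, with DESeq2 and in the fit of 18 libraries. Few genes of any kind passed in edgeR, with 0% of all genes called in NST3pro, 0.00660% in SMXL5pro and 0.0994% in APLpro, and with DESeq2 0.422%, 0.561% and 0.674% in the same order. At an unadjusted p of 0.05 the counts in edgeR were 0 in NST3pro, 0 in SMXL5pro and 2 in APLpro, beside 5.91%, 6.75% and 9.50% of all genes. The biological coefficient of variation was 0.898 in the NST3pro line, against 0.312 in SMXL5pro and 0.431 in APLpro. The 2 genes of the APLpro line were NAS4 and YSL2, each higher in all 3 GFP-positive libraries than in any GFP-negative library. NAS4 had 19.7, 16.6 and 19.8 CPM in GFP-positive and 2.87, 4.34 and 10.7 CPM in GFP-negative nuclei, a log2 fold change of 1.51 ± 0.54 (SE, adjusted p = 0.498). YSL2 had 34.2, 29.2 and 31.3 CPM in GFP-positive and 12.7, 17.4 and 15.9 CPM in GFP-negative nuclei, a log2 fold change of 0.98 ± 0.36 (0.505). OPT3 was not higher with the phloem reporter in the mean, with 145, 74.1 and 89.9 CPM in GFP-positive and 162, 154 and 107 CPM in GFP-negative nuclei, which overlapped (-0.51 ± 0.42, adjusted p = 0.668). Green cortex sums were 531 to 3869 CPM in GFP-positive and 3192 to 6731 CPM in GFP-negative nuclei of this line, and their part in the OPT3 values was not tested.

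**Figure D5:**
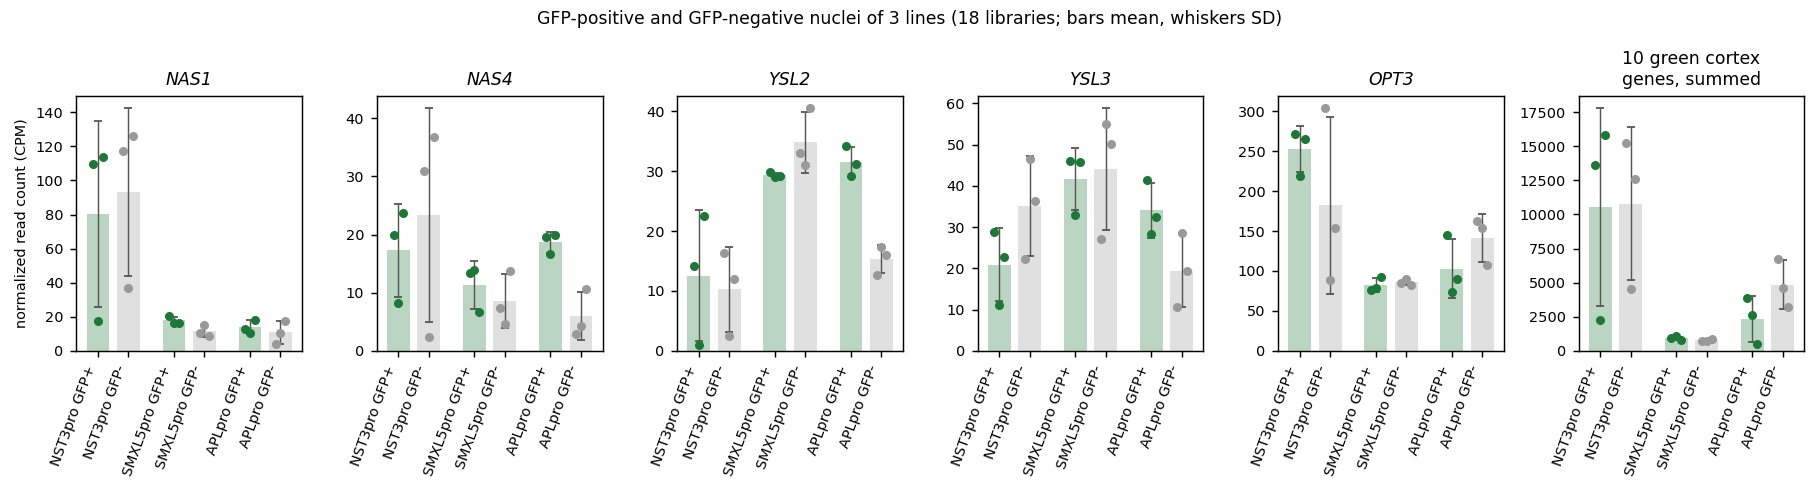
Normalized read counts (CPM, y axis, linear, own scale in each panel) of NAS1, NAS4, YSL2, YSL3, OPT3 and the sum of 10 green cortex genes in GFP-positive (green) and GFP-negative (grey) nuclei of the NST3pro, SMXL5pro and APLpro lines (x axis), with 1 point a library, bars for the mean and whiskers for the SD of 3 libraries. NAS1 averages 80.4 CPM in GFP-positive and 93.4 CPM in GFP-negative NST3pro nuclei, and 10.8 to 17.9 CPM in the other groups.

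Whether the effect of the sort differed between lines was tested as an interaction in the fit of 18 libraries. None of the 27 tests of the 9 genes passed an adjusted p of 0.05 in edgeR (1 at an unadjusted p of 0.05 for NST3pro against SMXL5pro, 2 for NST3pro against APLpro and 0 for SMXL5pro against APLpro). Of all genes, 0.00313% passed for NST3pro against SMXL5pro, 0.436% for NST3pro against APLpro and 0.00627% for SMXL5pro against APLpro. At the unadjusted p these shares of all genes were 12.6%, 15.4% and 1.64% in the same order. DESeq2 called 1 of the 27, beside 2.29%, 4.86% and 0.0978% of all genes, namely YSL1 between NST3pro and APLpro, with a log2 difference of -2.08 and an adjusted p of 0.00951. In edgeR this difference was -1.93 ± 0.63 (SE, adjusted p = 0.153). YSL1 had 10.0, 19.8 and 14.3 CPM in GFP-positive NST3pro nuclei, against 33.8, 22.0 and 35.4 CPM in its GFP-negative nuclei. The APLpro line showed the opposite order, with 30.8, 32.2 and 34.6 CPM in GFP-positive and 13.9, 11.2 and 28.5 CPM in GFP-negative nuclei, and the populations overlapped in neither line.

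After the values of NAS1 had been seen, GFP-negative nuclei were also compared between lines, which is given as a description. GFP-negative NST3pro nuclei had 117, 36.7 and 126 CPM of NAS1, against 8.66 to 15.5 CPM in the SMXL5pro line and 4.1 to 17.8 CPM in the APLpro line. These ranges did not overlap, and the log2 difference was 3.09 ± 0.51 (SE), with a range of 2.82 to 3.55 over the alternatives, beside a median of -0.22 for all genes. Of all genes, 18.8% differed in this comparison at an adjusted p of 0.05, so lines differed widely in their GFP-negative nuclei. NAS4 had 31.0, 2.45 and 36.8 CPM in GFP-negative NST3pro nuclei, with 1 read in replicate 47, against 2.87 to 13.7 CPM in those of both other lines. NAS2 had 0, 0 and 7 reads and NAS3 had 0, 0 and 4 reads in GFP-negative NST3pro nuclei. In GFP-negative nuclei of both other lines NAS2 had 0 to 72 reads and NAS3 had 2 to 54 reads a library. Green cortex sums were 4500.1 to 15258 CPM in GFP-negative NST3pro nuclei, 713 to 844 CPM in those of SMXL5pro and 3192 to 6731 CPM in those of APLpro, and their part in the NAS1 difference was not tested.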

How the data were processed

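Nuclear RNA of 30 libraries was amplified with Smart-seq2, without molecular identifiers, from 15000 sorted nuclei each (10800 in LTP1pro replicate 21). Where more than 3 preparations existed, the authors picked those in which a reporter PCR separated the populations most clearly. Single-end reads were trimmed (Cutadapt 2.3) and mapped to TAIR10 (STAR 2.5.0a), and the authors deposited raw read counts per Araport11 gene body, with introns, unique hits only and the strand ignored.

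Tissues were compared with the 17 libraries the study kept, at an adjusted p of 0.01 (contrasts also 2-fold), and populations within lines with all 18 libraries of the 3 lines, at an adjusted p of 0.05. The counts as deposited were tested two-sided, without a block, with the quasi-likelihood test of edgeR 4.0.16 (TMM, filterByExpr) in R 4.3.3, with Benjamini-Hochberg adjustment over all genes passing the filter. The code was tested on simulated data. CPM are TMM-scaled, with SD between libraries, and likeness used log2(CPM + 1). Lengths, coordinates, sequences and names are from the RefSeq annotation of TAIR10.1, which matched 37051 identifiers. Replicates are serial library numbers, and no label says which GFP-positive and GFP-negative libraries of a line share a preparation. Nothing says that libraries of a group came from separate plants, so p-values measure only the spread between these libraries. Alternatives were DESeq2 1.42.0, its size factors, no filter, all 21 GFP-positive libraries, the fit of 18 libraries for the lines and each library left out.

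The 10 genes and the iron lists were chosen with earlier results of these data known. All 10 are named, with the 5 genes most like NAS1, the 1 most like each other gene and, per list, the 2 genes with the widest range of tissue means past the test. The GFP-negative comparison between lines was added after the values were seen. Columns of no sample numbered 0.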

Additional observations from a re-analysis of the deposited data

How the results depend on the processing

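The count of genes past the 7-tissue test (3) stayed within 1.5 times in all 21 alternatives, at 2 to 4 with a library left out, as did the 19 iron list genes (16 to 20). The count for a tissue against the other 6 (7) was 3 with all 21 GFP-positive libraries and 3 to 7 with a library left out. The count for phloem-related against xylem-related tissues (2) was 1 with all 21 libraries and 1 to 3 with a library left out. The adjusted p of NAS1 among 5 tissues (0.00255) was 0.0139 with the size factors of DESeq2, 0.208 with all 21 libraries and 0.00108 to 0.0187 with a library left out. DESeq2 called 1 gene in the interactions between lines, where edgeR called 0. The log2 fold change of NAS1 in the APLpro line (0.26) reversed to -0.12 without GFP-negative replicate 43, within a range of -0.12 to 0.88. In each case the cause was not tested, and fits without a library or with all 21 also change the number of libraries. Counts within a line were 0 under every alternative run. Among all genes, DESeq2 called 111, 74 and 170 in the NST3pro, SMXL5pro and APLpro lines, edgeR 0, 2 and 31, and the fit of 18 libraries 845, 0 and 17. Few reads limit NAS2 and NAS3 throughout, and NAS1 in vessel elements.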
